A study of Mus musculus with 6 samples.

Results

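Voltage-gated and potassium channel genes were taken from the table of UMI counts by symbol alone: every gene whose symbol opens with Kcn and a further letter (potassium channels and their subunits), with Cacna, Cacnb or Cacng (voltage-gated calcium channels), with Scn, a number and a or b (voltage-gated sodium channels), or with Hcn and a number (pacemaker channels). This gave 91 of the 15643 genes in the table, of which 58 are potassium, 20 calcium, 10 sodium and 3 pacemaker channel genes. By the protein's role, 61 form a pore, 28 are accessory subunits and 2 (Kcnmb4os2 and Kcnrg) are no channel part.

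The libraries came from sorted mature medullary thymic epithelial cells (mTEChi, the class-II-high fraction of the thymic medulla) of NOD mice, a strain prone to autoimmune diabetes, aged 4.5 weeks. Libraries 745, 750 and 753 are labelled Aire +/+, and libraries 746, 748 and 749 Aire -/-, with 3 libraries of each genotype. No treatment or further allele is named. The sources used here do not say which part of Aire the mutation removes, nor whether a library holds 1 animal or several, so a p-value reflects only how much these 6 libraries vary.

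Aire is a nuclear protein of mature medullary epithelium that raises the transcription of many genes otherwise restricted to peripheral tissues, whose products are then shown to developing T cells. Ion channels are classic tissue-restricted products. Potassium channels set the resting potential and end action potentials, sodium channels start them, calcium channels turn them into contraction or secretion, and accessory subunits change the gating or surface level of a pore. Several channel proteins are also known targets of autoantibodies.

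MARS-seq counts each captured 3' end as a unique molecular identifier (UMI). Levels are given as UMIs per 1000000 (CPM) scaled by TMM, a factor that balances library composition, as mean ± SD over 3 libraries. They were not divided by gene length, because a molecule gives 1 tag at its 3' end whatever its length. A gene is called when edgeR's quasi-likelihood test gave an adjusted p (Benjamini-Hochberg, over the 11956 genes with enough UMIs) up to 0.05, and log2 fold changes are Aire-/- over Aire+/+. Library totals ran from 2736932 to 2887321 UMIs in Aire+/+ and from 1014581 to 1960802 in Aire-/-. A gene without a UMI in 1 library may still lie at up to 1.04 to 1.10 CPM in Aire+/+ and up to 1.53 to 2.96 CPM in Aire-/- (3 UMIs of its library total before TMM scaling, counting error only). All 12 markers of mature medullary epithelium on the list were tested, and Cd74, a class II chaperone, reached 14400 CPM in Aire+/+. Libraries 753 and 746 held 90 and 28 UMIs of Gapdh, against 2245 to 4166 in the other 4. Aire itself was read at 2245 ± 193 CPM in Aire+/+ and at 4839 ± 334 CPM in Aire-/- (log2 fold change 1.10, SE 0.14, adjusted p 7.78e-05 by edgeR, n = 3 each). A 3' tag outside the deleted stretch does not check the genotype, and whether the tag lies outside it is not known here.

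Channel genes moved in both directions between the genotypes. Of the 49 tested, 6 were lower in Aire-/- (12.2%, against 12.1% of all genes tested) and 9 were higher (18.4%, against 8.59% of all genes tested), and 34 were not called. In both directions together the share was 30.6%, against 20.7% of all genes tested. The 9 that rose include Kcnmb4os2, an antisense gene that is no channel part and overlaps Kcnmb4, which also rose. By role, 6 of 33 tested pore genes rose and 4 fell, and 2 of 15 tested accessory genes rose and 2 fell. The genes that fell included the largest changes: Kcnk16, Kcne1l and Kcnk9 had no UMI in any Aire-/- library, and Kcnk5 fell 6.51-fold. The largest rises were 3.26-fold for Kcnj3, 3.12-fold for Kcnh4, 2.74-fold for Kcnc1 and 2.46-fold for Cacna1s. The median log2 fold change over the tested channel genes was -0.09, beside -0.02 over all genes tested.

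Marker genes of several epithelial states moved with the genotype as well. Of the 12 markers of mature medullary epithelium 6 rose in Aire-/- (Cd74, H2-Aa, H2-Ab1, Cd80, Krt8 and Krt18) and 0 fell. The summed level of the 12 ran from 37740 to 44950 CPM in Aire+/+ and from 66390 to 76870 CPM in Aire-/-. Most of it came from Cd74, H2-Aa and H2-Ab1, with means of 14400, 10700 and 11900 CPM in Aire+/+ and 24200, 18800 and 23600 CPM in Aire-/-. The markers not called had log2 fold changes from -0.14 for Fezf2 to 0.31 for Cldn4. All 5 tested markers of cortical epithelium rose, with a summed level of 391.8 to 620.6 CPM in Aire+/+ and 871 to 1030 CPM in Aire-/-. Among tuft-like markers 2 of 6 tested rose (Gnb3 and Trpm5). Of the untested ones, Dclk1 went from 5.61 to 1.27 CPM and Pou2f3 from 1.76 to 3.76 CPM. Among neuroendocrine-like markers 2 of 6 rose (Chga and Insm1) and Scg2 fell. The untested Chgb had 45 UMIs in Aire+/+ and 2 in Aire-/-. Among ciliated-like markers 3 of 4 tested fell and 0 rose. Among markers of fibroblasts and endothelium 1 of 5 was called higher (Col3a1). It had 43, 22 and 17 UMIs in Aire+/+ and 190, 69 and 14 in Aire-/- libraries 746, 748 and 749. The fitted 8.06-fold rise was thus very uneven over these libraries. The part of these marker changes in the rises of channel genes was not tested.

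**Figure D1:**
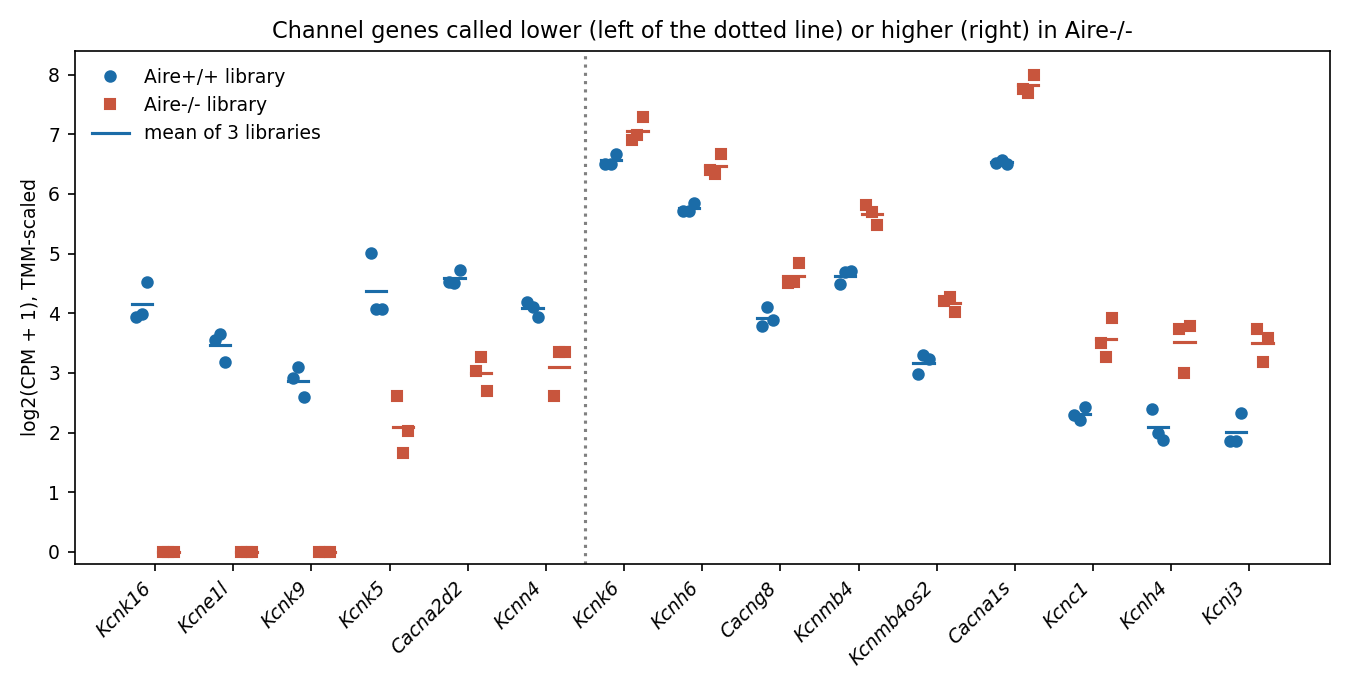
Level of the 15 called channel genes in each library, as log2(CPM + 1) with TMM scaling (circles: 3 Aire+/+ libraries, squares: 3 Aire-/- libraries, bars: means), ordered by fitted fold change. Kcnk16, Kcne1l and Kcnk9 sit at 0 in all Aire-/- libraries, and the genotypes do not overlap in any of the 15 genes.

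Aire+/+ and Aire-/- values did not overlap in 20 of the 49 tested channel genes (40.8%, against 36.5% of all genes tested), which include all 15 called ones. In bulk RNA, fewer cells with a gene and less RNA of it per cell cannot be told apart. The filter on low counts asked for about 4.26 CPM in at least 3 libraries. It was met in all 6 libraries by 28 of the 49, in all Aire+/+ libraries only by 11 and in all Aire-/- libraries only by 4. Among the called genes, 4 of the 6 that fell and 3 of the 9 that rose passed it through the genotype in which they are high.

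The start regions of 4 called genes show how unlike they are in the dinucleotide CG, which is dense at widely used promoters and sparse at many tissue-restricted ones. They are Kcnk16 and Kcnk5, which lie side by side and both fell, and Kcnc1 and Cacna1s, which both rose. Each line holds the 120 bases before the outermost annotated start, 5' to 3' on the strand of the gene, from RefSeq promoters of build GRCm38.p6, with every CG in capitals. They span chr14:20269270-20269389 (minus strand), chr14:20181810-20181929 (minus strand), chr7:46396348-46396467 (plus strand) and chr1:136052630-136052749 (plus strand), in this order.
Kcnk16: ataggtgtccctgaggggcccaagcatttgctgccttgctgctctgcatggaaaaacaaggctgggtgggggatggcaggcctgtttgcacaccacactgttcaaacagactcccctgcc
Kcnk5: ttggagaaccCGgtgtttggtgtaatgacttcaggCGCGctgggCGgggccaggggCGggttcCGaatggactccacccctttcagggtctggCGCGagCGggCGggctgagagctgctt
Kcnc1: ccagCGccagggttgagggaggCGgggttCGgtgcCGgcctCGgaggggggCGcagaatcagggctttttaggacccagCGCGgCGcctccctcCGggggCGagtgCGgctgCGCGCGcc
Cacna1s: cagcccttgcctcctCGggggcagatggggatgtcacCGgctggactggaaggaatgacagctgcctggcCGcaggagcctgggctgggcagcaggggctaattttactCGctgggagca

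The stretch of Kcnk16 holds 0 CG and that of Kcnk5 holds 10, while those of Kcnc1 and Cacna1s hold 15 and 4. Over the 300 bases of the RefSeq promoter (250 before to 50 after the start), the ratio of observed to expected CG was 0.082 for Kcnk16, 0.878 for Kcnk5, 0.996 for Kcnc1 and 0.303 for Cacna1s. These 4 were chosen to show the spread and not as a sample of the called genes. RefSeq promoters matched 66 of the 91 channel genes, with 85 starts. Their median ratio was 0.483, against 0.384 over all 32851 promoters of the reference. That reference spans 27025 genes, more than the 15643 with UMI counts here. It thus includes genes that were not read in these cells, and the sets are not matched for expression. Within the channel genes, the median ratio was 0.33 over the 5 promoters of genes that fell and 0.665 over the 8 of genes that rose. That difference was not tested. Among the 15 starts of channel genes without a UMI in Aire-/- the median was 0.361. The letters GGGCGG (on either strand, the core of a GC box) were in 54.1% of the channel promoters and 35.7% of all promoters, in 4 of 5 promoters of genes that fell and 7 of 8 of genes that rose. The letters TATAAA (either strand) were in 3.53% of the channel promoters and 13.6% of all. These are matches of letters only, and the shares of all promoters have the same limit of an unmatched reference.

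The K2P (tandem pore domain) family, whose members carry the resting leak of potassium, held 3 of the 6 genes that fell. Of its 5 tested members 3 fell, 1 rose and 1 was not called. Over all genes tested 12.1% fell and 8.59% rose, and how the family compares with these shares was not tested. The 3 that fell, Kcnk16, Kcnk9 and Kcnk5, met the filter on low counts in all Aire+/+ libraries but not in all Aire-/- libraries. Kcnk16 (TALK-1), a channel best known in the pancreatic beta cell, was read with 44, 45 and 66 UMIs in Aire+/+ libraries 745, 750 and 753 and with 0 in each Aire-/- library. Its level of 17.1 ± 4.33 CPM in Aire+/+ was at least 25.4-fold higher, with the floor of 3 UMIs set over the pooled Aire-/- libraries (edgeR adjusted p 5.79e-05). Kcnk9 (TASK-3), an acid-sensitive leak channel of neurons and adrenal cortex, had 20, 23 and 15 UMIs in Aire+/+ and 0 in each Aire-/- library. Its Aire+/+ level of 6.38 ± 1.29 CPM was at least 9.49-fold higher by the same floor (edgeR adjusted p 0.00063).

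Kcnk5 (TASK-2), an alkaline-activated leak channel of kidney tubule and other epithelia, was at 31.1, 15.8 and 15.7 CPM in Aire+/+ and at 5.15, 2.16 and 3.06 CPM in Aire-/-. Library 745 stood at about the sum of its Aire+/+ companions, and every Aire-/- library lay below all of them (log2 fold change -2.70, SE 0.44, edgeR adjusted p 0.000687). Kcnk6 (TWIK-2), the most abundant member of the family here, went the other way, from 89.9, 90 and 101 CPM to 119, 126 and 155 CPM. The rise was small, 1.42-fold (edgeR adjusted p 0.0235), and was not called in 5 of 12 alternative analyses, with library 749 or any single Aire+/+ library left out or with scaling by library totals. Kcnk1 (TWIK-1) stood at 7.83 ± 2.53 CPM and then at 3.50 ± 3.17 CPM, without a call (edgeR adjusted p 0.165).

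Kcnk5 and Kcnk16 are neighbours on chromosome 14 of mm10, both on the minus strand: Kcnk5 spans 20140057 to 20181809 and Kcnk16 spans 20261376 to 20269199, 79.6 kb apart. Of the other tested genes within 200 kb of either, Nudt13, Ecd, Fam149b, Dnajc9, Mrps16 and Anxa7 were not called, with log2 fold changes from -0.28 for Ecd to 0.26 for Anxa7. Cfap70, a gene of motile cilia, fell as well, with 47 UMIs in Aire+/+ and 1 in Aire-/- (log2 fold change -4.24, edgeR adjusted p 0.00132). Kcnk9 lies on chromosome 15, and its 1 tested neighbour within 200 kb, Trappc9, was not called. Around the other called genes, neighbours within 200 kb were called in varying numbers. Near Kcnh4, 6 of 13 tested neighbours rose and 1 fell, near Cacna2d2 4 of 19 rose and 2 fell, and near Kcnk6 1 of 10 rose. Near Kcnc1 2 of 3, near Cacna1s 2 of 7 and near Kcnh6 1 of 9 fell, opposite to the channel gene. None was called of 9 near Kcnn4 and 3 near Cacng8. Over all genes tested 12.1% fell and 8.59% rose, and whether any of these small groups of neighbours differs from that was not tested.

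**Figure D2:**
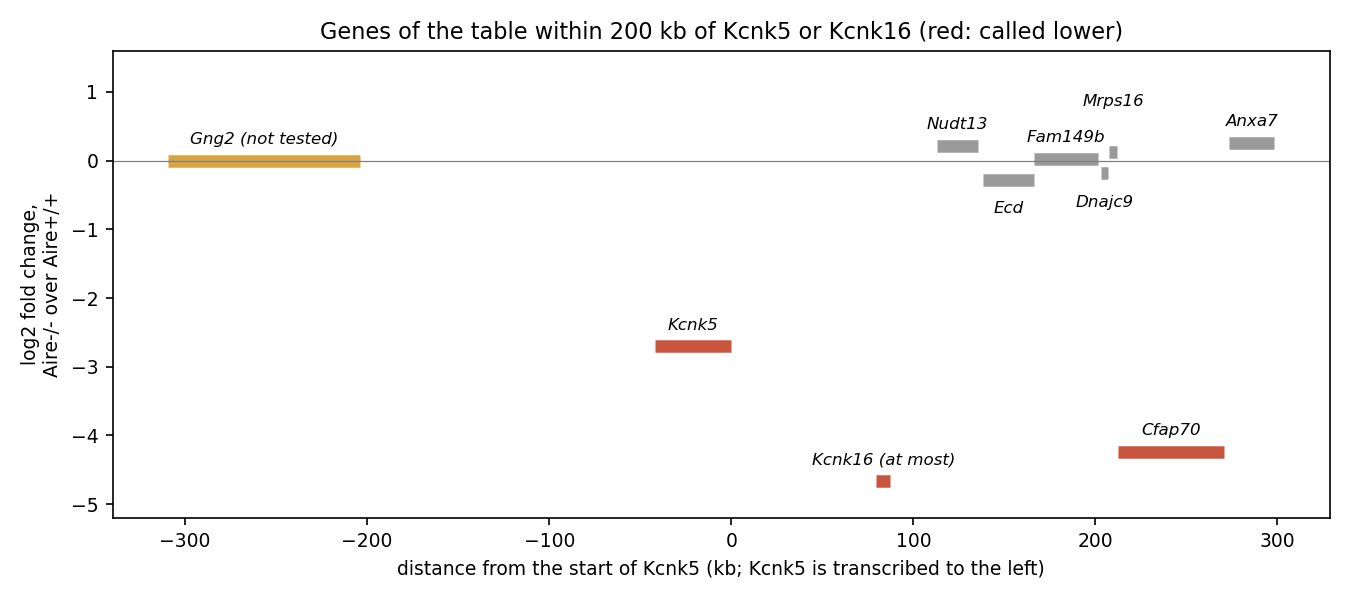
Genes of the table within 200 kb of Kcnk5 or Kcnk16, drawn by distance from the start of Kcnk5 (kb) against log2 fold change of Aire-/- over Aire+/+ (red: called lower, grey: not called, yellow at 0: not tested). Kcnk16 is drawn at its bound, an at least 25.4-fold lower level. Kcnk5, Kcnk16 and Cfap70 lie apart from the 6 genes near 0.

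Among the small accessory peptides related to MinK, which change the gating or surface level of Kv channels, 1 member was tested and fell. Kcne1l (also named Kcne5), an X-linked subunit that holds back the cardiac channel of Kcnq1, had 33, 35 and 24 UMIs in Aire+/+ and 0 in each Aire-/- library. Its Aire+/+ level of 10.1 ± 1.84 CPM was at least 15.1-fold higher (edgeR adjusted p 0.000177). Kcne1l also met the filter on low counts in all Aire+/+ libraries but not in all Aire-/- libraries. Its tested neighbours Nxt2 and Acsl4, on the X chromosome, were not called. Kcne2, known from gastric parietal cells and heart, was too low for the test, with 20, 16 and 10 UMIs in Aire+/+ and 0 in each Aire-/- library, an at least 7.53-fold difference.

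The other 2 genes that fell were milder changes. Cacna2d2, an alpha-2-delta subunit that carries calcium channels to the surface, was at 21.9, 21.8 and 25.4 CPM in Aire+/+ and at 7.21, 8.63 and 5.52 CPM in Aire-/-. The genotypes lay well apart, a 3.22-fold fall (log2 fold change -1.69, SE 0.27, edgeR adjusted p 0.000598). Kcnn4, a calcium-activated potassium channel of lymphocytes, red cells and secretory epithelium, was at 17.3, 16.2 and 14.4 CPM and then at 5.15, 9.17 and 9.19 CPM. Its fall of 1.95-fold (edgeR adjusted p 0.0325) was not called in 7 of the 12 alternatives, among them each Aire+/+ library left out. Summed levels of T-cell markers ran from 150.4 to 268.6 CPM in Aire+/+ and from 161.6 to 292.3 CPM in Aire-/-, with 0 of 9 tested called. Those of B-cell markers ran from 104.5 to 131.7 CPM and from 83.4 to 186.9 CPM, with 0 of 3 tested called. The part of lymphocytes in the level of Kcnn4 was not tested.

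Calcium channel genes held the largest absolute rise. Cacna1s, the pore of the skeletal muscle L-type channel that couples the membrane to calcium release, was read with 278, 285 and 267 UMIs in Aire+/+ and 210, 383 and 416 UMIs in Aire-/-. On the CPM scale this was 90.8, 94 and 89.4 against 216, 206 and 255, close to each other within a genotype and far apart between them (log2 fold change 1.30, SE 0.13, edgeR adjusted p 2.08e-05). Gm37759, which is not in the table, overlaps the 3' end of Cacna1s on the opposite strand, and the strand setting of the counting is not given, so UMIs of the pair cannot be told apart. Over the muscle markers, Des rose (log2 fold change 1.43) while Ckm, Actc1 and Tnnt3 fell, 4 called of 5 tested. The summed level of the list ran from 325.9 to 351.6 CPM in Aire+/+ and from 704.3 to 774 CPM in Aire-/-, of which Des alone gave means of 262 and 709 CPM. Of the other genes, Ckm went from 19.6 to 6.49 CPM, Tnnt3 from 22.1 to 2.28 CPM and Actc1 from 21.1 CPM to 0 UMIs. Their part in the level of Cacna1s was not tested. The other 6 tested pores of calcium channels were not called, with log2 fold changes from -0.76 for Cacna1g to 0.97 for Cacna1d.

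Of the subunits around the pore, Cacnb3, a beta subunit that brings the channel to the membrane, was the most abundant channel gene in the table. It stood at 211, 218 and 203 CPM in Aire+/+ and at 146, 164 and 229 CPM in Aire-/-, so that library 749 lay above all Aire+/+ libraries and 746 and 748 below (edgeR adjusted p 0.366). Without library 749 it was called lower (log2 fold change -0.44). Cacng8, a TARP that escorts AMPA glutamate receptors in neurons, rose from 12.8, 16.2 and 13.7 CPM to 21.6, 22.1 and 27.6 CPM. That 1.67-fold rise (edgeR adjusted p 0.0337) was not called in 8 of the 12 alternatives, with 5 of the 6 libraries left out in turn, all but 746. Its neighbour Cacng7, 22.5 kb away on chromosome 7, was not called (log2 fold change 0.22), and Cacng6, 8.55 kb on the other side, was too low for the test.

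Among voltage-gated potassium channels, the genes that rose came from the Kv3 and the EAG, ERG and ELK families. Kcnc1 (Kv3.1), which lets neurons fire at high rates, was at 3.92, 3.63 and 4.35 CPM in Aire+/+ and at 10.3, 8.63 and 14.1 CPM in Aire-/- (log2 fold change 1.45, SE 0.34, edgeR adjusted p 0.00802). Kcnh4, an ELK channel of brain, was at 4.25, 2.97 and 2.68 CPM and then at 12.3, 7.01 and 12.9 CPM (log2 fold change 1.64, SE 0.38, edgeR adjusted p 0.00749). Both rest on few molecules, 36 and 30 UMIs over the Aire+/+ libraries. Both met the filter on low counts in all Aire-/- libraries but not in all Aire+/+ libraries. Every Aire-/- library lay above every Aire+/+ library, but the genotypes lay apart in all 15 called genes. Without libraries 753 and 746 together, Kcnh4 was not called (edgeR adjusted p 0.0781).

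Kcnh6, an ERG channel, rose from 51.3, 51.8 and 56.9 CPM to 83.4, 79.8 and 100 CPM (1.64-fold, edgeR adjusted p 0.00373) and was called in all 12 alternatives. Its relative Kcnh3 was more abundant and was not called, at 75.8 ± 15.7 CPM in Aire+/+ and 79.9 ± 11.6 CPM in Aire-/-. Members of this family thus differed in their call, but the difference between them was not tested. Kcnh2, the ERG channel that repolarises the heart, stood at 7.91 ± 2.4 CPM and then at 5.56 ± 2.69 CPM, without a call. None of the 3 tested Kv7 genes was called, and Kcnq3, the most abundant, was at 21.2 ± 2.16 and 16.3 ± 3.61 CPM. Kcna2 of the Kv1 family and the beta subunit Kcnab2 were not called either, with log2 fold changes of -0.47 and 0.11. The sign for Kcnab2 turned to -0.09 with scaling by library totals. Kcnip3, a calcium-binding protein that joins Kv4 channels and also acts as the repressor DREAM, was at 47.4 ± 5.41 and 44.1 ± 10.7 CPM.

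The inward rectifiers, which pass potassium mainly into the cell, held 1 call in 4 tested genes. Kcnj3 (GIRK1), opened by G proteins in atrium and brain, was at 2.61, 2.64 and 4.02 CPM in Aire+/+ and at 12.3, 8.09 and 11 CPM in Aire-/-. Every Aire-/- library lay above every Aire+/+ library (log2 fold change 1.70, SE 0.36, edgeR adjusted p 0.0044). Kcnj3 also met the filter on low counts in all Aire-/- libraries but not in all Aire+/+ libraries. Kcnj15, an epithelial rectifier and the fourth most abundant channel gene, was at 98.4, 94.3 and 104 CPM and then at 56.6, 74.4 and 110 CPM. Library 749 again stood above 746 and 748, and without it Kcnj15 was called lower (log2 fold change -0.57). Kcnj11, the pore of the ATP-sensitive channel of the beta cell, stood at 4.18 ± 1.67 CPM and then at 5.42 ± 2.08 CPM, without a call, while its partner Abcc8, the sulfonylurea receptor, rose from 79.9 ± 2.33 to 132 ± 29.0 CPM (edgeR adjusted p 0.00632). Whether both changes differ was not tested.

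BK channels join calcium and voltage sensing in one pore. The pore gene Kcnma1 was at 23.7 ± 1.32 CPM in Aire+/+ and 30 ± 3.30 CPM in Aire-/- and was not called (edgeR adjusted p 0.276). Its neuronal beta subunit Kcnmb4 rose from 21.6, 24.7 and 25.1 CPM to 55.6, 50.7 and 43.5 CPM (log2 fold change 1.05, SE 0.18, edgeR adjusted p 0.000812). The antisense gene Kcnmb4os2 rose by as much, from 6.86, 8.90 and 8.37 CPM to 17.5, 18.3 and 15.3 CPM (log2 fold change 1.07, SE 0.27, edgeR adjusted p 0.0125). The 2 genes lie head to head on chromosome 10 and share 716 bases at their 5' ends, whereas the tags come from 3' ends. With the strand setting unknown, whether any UMI was counted for both is not known. A 3' end of Kcnmb4 also holds a repeat that matches transcripts of 388 other genes at 90% identity or more. A 3' end of Kcnma1 likewise matches transcripts of 36 other genes. The levels of Kcnmb4 and Kcnma1 are uncertain for that reason. Lrrc26, a BK gamma subunit, rose too, from 7.70 ± 3.50 to 15.7 ± 1.17 CPM (edgeR adjusted p 0.0493).

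Sodium and pacemaker channel genes showed no call in any of their 9 tested members, by edgeR's test or by DESeq2's. At an unadjusted p under 0.05 the count was 0 of 9 by either tool as well. With 20.7% of all genes tested called in either direction, 0 of so few genes does not set them apart. Scn4b, a beta subunit, was the most abundant sodium channel gene, at 20.6, 17.1 and 17.4 CPM in Aire+/+ and 15.4, 28.0 and 20.8 CPM in Aire-/-. Scn9a, the pore known for pain sensing, was at 9.80, 11.5 and 8.37 CPM and at 9.26, 9.17 and 19.6 CPM. The genotypes overlapped in both of these. They did not overlap in Hcn2, at 5.95 ± 0.07 and 2.92 ± 2.77 CPM, and in Hcn4, at 16.2 ± 2.95 and 13.3 ± 0.29 CPM, both lower in Aire-/- without a call. Over all genes tested, 36.5% did not overlap. Hcn3 was at 22 ± 5.17 and 28.7 ± 4.75 CPM, and its 3' end is overlapped by Pklr on the opposite strand. Scn4a, the pore of skeletal muscle, and Scn10a and Scn11a, of pain-sensing neurons, were too low for the test.

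**Figure D3:**
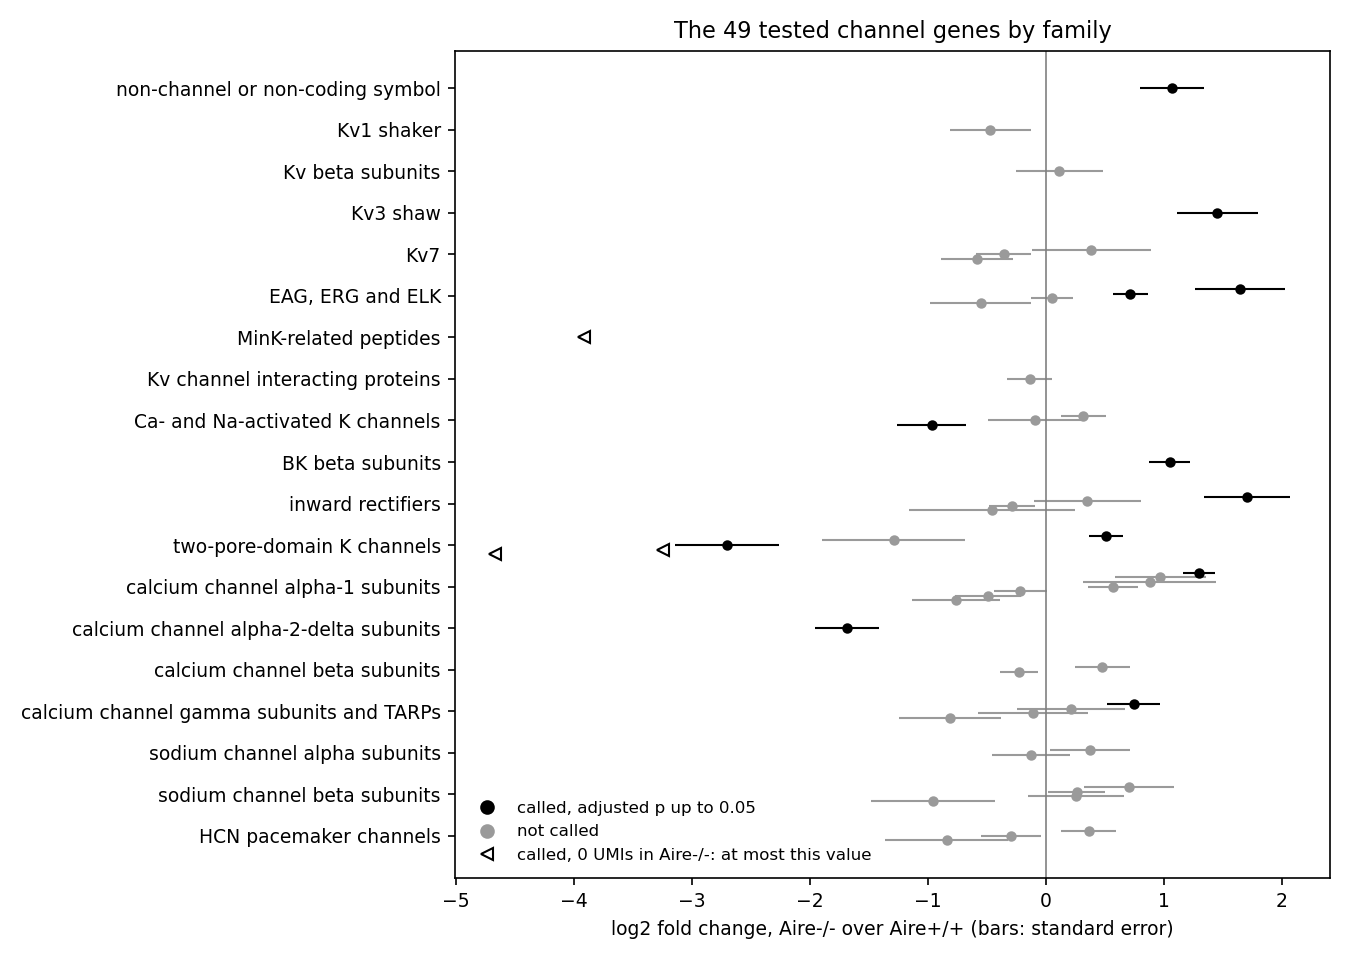
Log2 fold change, Aire-/- over Aire+/+, of the 49 tested channel genes by family, with bars for the standard error (black: called, grey: not called). Triangles mark Kcnk16, Kcne1l and Kcnk9, drawn at the bound given by the floor of 3 UMIs. Potassium channels of the K2P family include both falls and a rise, and the 9 sodium and pacemaker channel genes hold no call.

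The 42 untested channel genes were all low, with at most 46 UMIs over the Aire+/+ libraries and 21 over the Aire-/- libraries. By pooled CPM, 33 of them were below the Aire+/+ value in Aire-/- and 9 above it. The same split over all untested genes was not computed, so it is not known whether channel genes differ from them. Of the 42, 11 had no UMI in Aire-/-, 13 had 1 to 3 and 18 had more. With the 3 tested genes, 14 of the 91 channel genes (15.4%) had no UMI in any Aire-/- library, against 5.48% of all genes in the table, and none had no UMI in Aire+/+. The table holds only genes that reach 6 UMIs in at least 1 library, so a gene absent from Aire-/- could enter it only through the deeper Aire+/+ libraries. This entry rule bears on both counts of genes without a UMI, on the split of 33 and 9, and on the detection counts of each genotype. Channel genes are lower than the average gene, with a median of 4.33 CPM against 12.6 CPM over all genes, and the Aire-/- libraries are shallower, so that the shares are not matched for level.

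Besides Kcne2, untested genes with 0 UMIs in Aire-/- and at least 20 in Aire+/+ were Kcna6, Kcns1 and Kcnrg. Kcna6, a Kv1 pore of nerve, had 17, 8 and 13 UMIs in Aire+/+ and was at least 6.22-fold lower in Aire-/-. Kcns1, a silent subunit that alters Kv2 channels in sensory neurons, had 11, 11 and 13 UMIs and was at least 5.73-fold lower. Kcnrg, a soluble regulator of Kv channels whose human counterpart is a bronchial autoantigen in APS1, had 6, 12 and 3 UMIs and was at least 3.44-fold lower. Kcna6 lies 61.9 kb from Kcna1, which had 16 UMIs in Aire+/+ and 3 in Aire-/-, a ratio of 2.62 with a 95% counting interval from 0.75 to 14.

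With a looser filter (min.count 3 in place of 10), 76 channel genes were tested, 15 were lower (19.7%, against 14.2% of all genes) and 9 were higher (11.8%, against 7.47% of all genes). All 15 genes called with the stricter filter were called again in the same direction. The 9 added ones, all lower, were Cacna1i, Cacna2d3, Kcna6, Kcnc4, Kcne2, Kcnip1, Kcnk3, Kcnmb2 and Kcns1. They had 0 to 3 UMIs over the Aire-/- libraries and passed this filter through Aire+/+. A call of theirs could therefore only be lower, and the share of 19.7% is not independent of this entry. Kcnc4, a Kv3 pore, had 45 UMIs in Aire+/+ and 2 in Aire-/-, a ratio of 11 with a 95% counting interval from 2.89 to 94. Its relative Kcnc1 was among the genes that rose. Kcnip1, another Kv4 partner, had 40 and 1 UMIs.

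**Figure D4:**
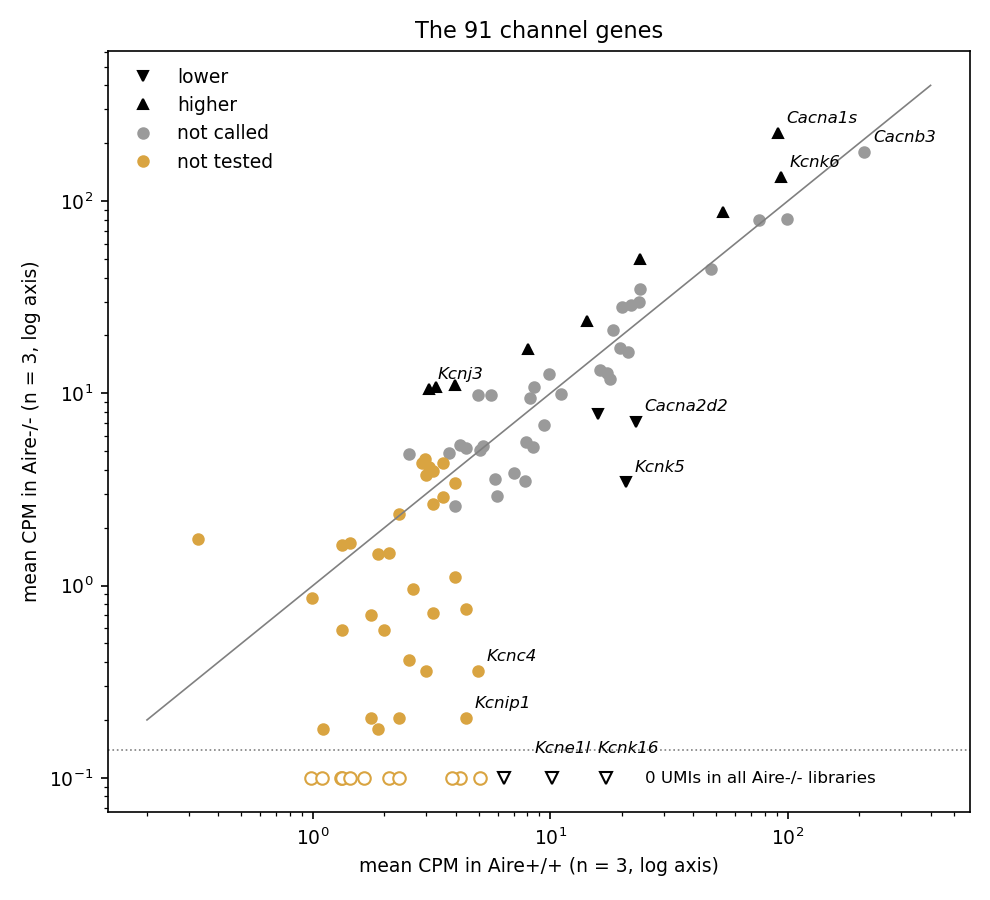
Mean CPM of the 91 channel genes in Aire+/+ and Aire-/- (3 libraries each, log axes, line: equal level). Open symbols below the dotted line are the 14 genes with 0 UMIs in all Aire-/- libraries, all of them under 20 CPM in Aire+/+, while the called rises lie above the line at low and high levels.

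Fewer channel genes were detected in Aire-/-, while their summed level was not lower on the TMM scale. Summed over the 91 genes, the level was 1272, 1283 and 1218 CPM in Aire+/+ libraries 745, 750 and 753 and 1308, 1296 and 1498 CPM in Aire-/- libraries 746, 748 and 749. Relative to library totals alone the order was not kept, with 1422, 1370 and 1259 UMIs per 1000000 in Aire+/+ and 1253, 1226 and 1340 in Aire-/-. The 8 most abundant genes, among them Cacnb3, Cacna1s, Kcnk6 and Kcnj15, made up 60.1% of the channel CPM averaged over the libraries, 12 genes were above 20 CPM and 50 were under 5 CPM. At least 1 UMI was found for 90, 89 and 90 channel genes in Aire+/+ and for 63, 71 and 69 in Aire-/-. Brought to the depth of the smallest library, 1014581 UMIs, the expected numbers were 86.2, 84.1 and 84.7 in Aire+/+ and 63.0, 65.6 and 65.3 in Aire-/-. Over all genes of the table the same calculation gave 15278, 15144 and 15219 genes against 13566, 13633 and 13620.

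**Figure D5:**
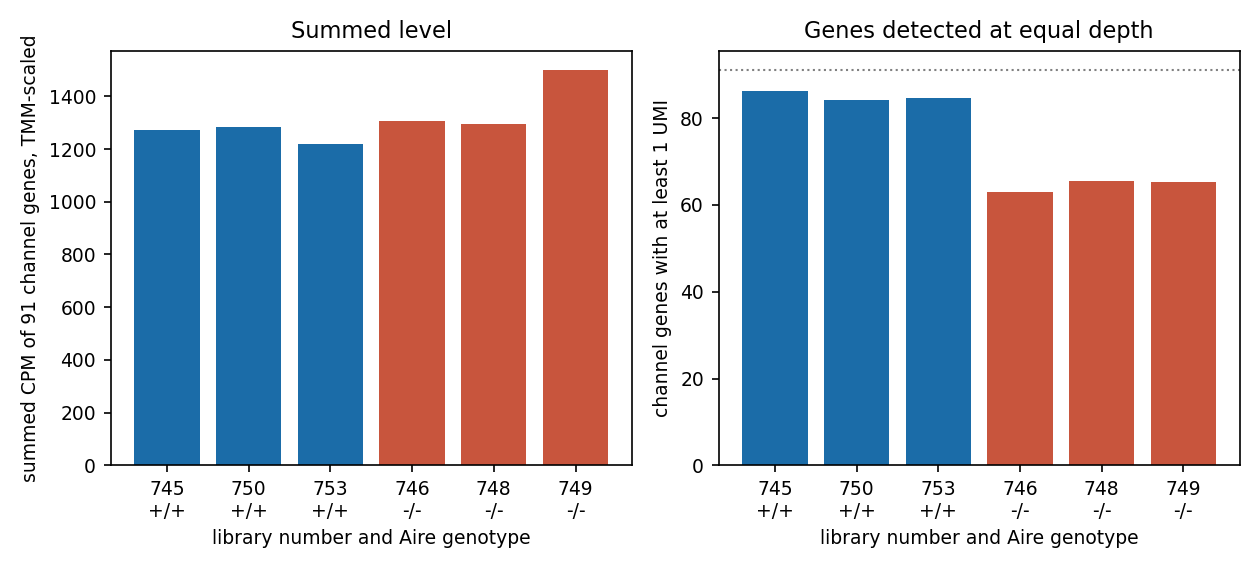
Left, summed CPM of the 91 channel genes in each library (bars from 0). Right, expected number of channel genes with at least 1 UMI at 1014581 UMIs (dotted line: all 91). The sums run from 1218 to 1498 CPM, while 84.1 to 86.2 genes were detected in Aire+/+ and 63.0 to 65.6 in Aire-/-.

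Grouped by the tissue in which they are best known, channel genes gave 0 to 2 calls per group, too few to set against the 12.1% of all genes called lower and 8.59% called higher. Among the 7 tested genes of kidney and secretory epithelium 2 fell (Kcnk5 and Kcnn4). Among 4 tested genes of the pancreatic beta cell Kcnk16 fell and Kcnh6 rose. Among 5 of the heart Kcnj3 rose, and among 3 of skeletal muscle Cacna1s rose. None was called among 4 tested genes of the inner ear, 2 of sensory neurons, 1 of the retina and 3 targets of neurological autoantibodies. Of the known partners of these channels, 13 were tested, 0 fell by edgeR's test (0 also by DESeq2's and at an unadjusted p under 0.05) and 3 rose: Abcc8, Lrrc26 and Stac, an adaptor of L-type calcium channels (log2 fold change 1.22, edgeR adjusted p 0.0223).

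The authors' deposited table gave 10 channel genes higher in Aire+/+ and 8 higher in Aire-/- at an adjusted p up to 0.05, against 9.79% and 5.31% of all its genes. Of the 15 genes called here, Cacng8 and Kcnn4 had adjusted p-values of 0.106 and 0.1 in the authors' deposited table, and the other 13 were at or under 0.05 there. For Kcnk16 the authors' deposited table gave a log2 fold change of 7.06 for Aire+/+ over Aire-/-.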

How the data were processed

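Sorted mTEChi of 6 libraries were compared, 3 per Aire genotype. Libraries were built by MARS-seq, per the labels' protocols. Reads were handled on build mm10 with STAR 2.4.2a, HTSeq, cutadapt, bcl2fastq and DESeq2, per the submitters' processing notes, which give no roles. Which annotation and strand setting were used, and how UMIs were collapsed, is not given in the sources used here. Per the file headers, the authors' UMI counts per gene are raw. The normalized signal and the regularized log2 values deposited by the authors were not used. The log2 fold changes, p-values and adjusted p-values named as the authors' are those of the deposited table. It holds no gene below 6 UMIs in every library.

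Counts were tested with edgeR 4.0.16 in R 4.3.3 (glmQLFit, glmQLFTest, TMM, genotype only, filterByExpr with min.count 10), adjusted by Benjamini-Hochberg over 11956 genes, threshold 0.05. The script was tested on simulated data. DESeq2 1.42.0 was an alternative. A group at 0 is set to a floor of 3 UMIs over the group. Ratios with 1 to 3 UMIs have exact Clopper-Pearson intervals at 95% confidence. Intervals and floors cover counting error only. Expected detection used hypergeometric probabilities. The last 300 bases of transcripts were matched to other genes with blastn 2.17.0. Coordinates are those of GENCODE on mm10, and promoters those of RefSeq on GRCm38.p6. No 2 libraries of a genotype agreed within sampling noise (chi-square per degree of freedom from 3.02 to 6.83).

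The members and all lists were chosen with earlier results of these data known. Named were every called member, the most abundant member of each family with 1 tested, untested members with 0 UMIs in one genotype and at least 20 in the other, called partners, and pairs within 200 kb. Kcnk1, Kcnh2, Kcnj11, Kcnc4 and Kcnip1 were added after their values were seen.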

Additional observations from a re-analysis of the deposited data

How the results depend on the processing

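Over 12 alternatives, Cacna1s, Cacna2d2, Kcnc1, Kcne1l, Kcnh6, Kcnj3, Kcnk16, Kcnk5, Kcnk9 and Kcnmb4 were called each time, Kcnmb4os2 was lost in 3 and Kcnh4 in 1. Channel genes called lower numbered 15 with min.count 3, 14 without a filter and 5 to 14 with 1 library left out (12 without 746, 11 without 748, 14 without 749). In these fits more genes pass the filter: 63 to 65 channel genes were tested without 1 Aire-/- library. DESeq2's own test called 5 lower and 8 higher. Over all genes, 1027 were higher, 561 with scaling by library totals, 651 without libraries 753 and 746, and 618 to 1156 with 1 library left out (632 without 745, 618 without 753). Under scaling by totals, the all-gene median log2 fold change was -0.23 in place of -0.02, and 78.8% of calls were lower in place of 58.6%, with 6 channel genes lower and 7 higher. Partners and other channel genes called lower numbered 6, 18 with min.count 3, 17 without a filter and 4 to 14 with 1 library left out. Those called higher numbered 12, 3 by library totals, 6 by DESeq2's test, 3 without libraries 753 and 746, and 3 to 12 with 1 library left out. The mean number of channel genes detected was 85.0 in Aire+/+ and 64.6 in Aire-/-, 76.8 and 55.8 at 2 UMIs or more, and 89.7 and 67.7 at full depth. Signs turned for 4 uncalled genes: Kcnab2 (0.11) to -0.093 by library totals, -0.33 without 753 and 746, and from -0.14 to 0.40 with 1 library left out, Kcnh3 (0.05) to -0.15, -0.17 and from -0.06 to 0.23 under the same settings, and, with 1 library left out, Kcnip3 (-0.14) from -0.28 to 0.036 (without 749) and Scn9a (0.37) from -0.11 (without 749) to 0.62. The cause of these turns was not tested. No paired analysis was possible because the library numbers differ between the genotypes. The alternatives for partners and other channels were chosen after seeing the data.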

Other observations

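Channels outside the voltage-gated and potassium families were also read. Of 31 other cation channel genes tested, 1 fell and 7 rose (12.1% and 8.59% of all genes tested fell and rose). Together with the 3 partners that rose and 2 anion channel genes, 12 such genes were higher, and 3 with scaling by library totals, without library 753, or without 753 and 746. Pkd2l1, a channel of the polycystin family, fell from 11.5 ± 1.44 to 3.26 ± 2.24 CPM (edgeR adjusted p 0.0103, n = 3 each). Asic3, an acid-sensing sodium channel of sensory neurons, rose from 36.8 ± 3.50 to 104 ± 23.6 CPM (edgeR adjusted p 6.3e-05), and Ryr3, a calcium release channel, rose from 9.05 ± 2.77 to 27.4 ± 8.83 CPM (edgeR adjusted p 0.00167).

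Of 23 anion channel genes tested, 5 fell and 2 rose, few genes beside shares of 12.1% and 8.59% over all genes tested. Clca1, a secreted regulator of chloride conductance in goblet cells, fell from 13.7 ± 4.32 to 2.22 ± 0.205 CPM (edgeR adjusted p 0.000734). Clca3a2 fell from 94 ± 11.7 to 48.5 ± 4.19 CPM (edgeR adjusted p 0.00065), while Clca3b was read at 24.7 ± 10.5 and 69.8 ± 49.3 CPM and was called higher (edgeR adjusted p 0.0327). Clca genes are close copies of each other, and how reads that match several genes were counted is not given. Of 2 tested markers of ionocytes, Foxi1 fell, with 52 UMIs in Aire+/+ and 0 in Aire-/-. The other, Cftr, was not called (edgeR adjusted p 0.249). Foxj1, of ciliated cells, fell 2.89-fold, from 86 ± 19.1 to 29.5 ± 10.5 CPM (edgeR adjusted p 0.000491).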
